A study of Mus musculus with 9 samples.

Results

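The 10 genes described here encode the adaptor, kinases and TRAFs that stand between TLR7 or TLR9 and the transcription factors IRF7 and NF-kB: *Myd88*, *Irak1*, *Irak2*, *Irak3*, *Irak4*, *Traf3*, *Traf6*, *Map3k7*, *Chuk* and *Ikbkb*. They were chosen by name for their place in the pathway, and all 10 were found by symbol among the 52550 genes of the deposited values. The study profiled splenic pDCs of mice that were WT (G/G), heterozygous (G/A) or homozygous (A/A) for a knocked-in *Ncf1* allele, in which histidine takes the place of arginine and whose founders were bred to C57BL/6J, after 12 hours with the TLR7/-8 ligand R848. It had 9 samples, 3 of each genotype, from adult female mice according to the methods, and every sample was stimulated. The levels below come from 1 library, A/A replicate 1, and the 8 remaining samples were not analysed here. Genotypes were therefore not compared, no unstimulated level was measured, and every value stands without replicates.

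After ligand binding, TLR7 and TLR9 recruit the adaptor MyD88, which gathers IRAK4 and then IRAK1 and IRAK2 into a complex called the Myddosome. The IRAKs pass the signal to the ubiquitin ligase TRAF6, whose chains activate TAK1 (*Map3k7*) and, through it, the IKK kinases that release NF-kB. In pDCs the same complex, with TRAF3, IRAK1 and IKK-alpha (*Chuk*), also leads to the activation of IRF7 and to type I IFN, and IRAK3 (IRAK-M) is known as a brake on the IRAK step.

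The library held 31408298 reads on 17664 genes. A level by the rule is CPM, the value over the column total scaled to 1000000. To compare genes of different length, the reads were also divided by the exon bases of each gene and scaled to a total of 1000000, called the level per kilobase here. Intervals are Wilson 95% intervals, and they cover counting error only, with each read taken as an independent draw. Amplified copies of 1 molecule may be counted more than once, in which case the intervals are too narrow. Of the sort markers, *Bst2* (PDCA1) stood at 1657 CPM, *Siglech* at 374 and *Itgax* (CD11c) at 38.5, and 6 of 6 other pDC markers were above the median gene. The 4 T cell markers were all listed at 0. The 4 B cell markers summed to 6.69 CPM with *Pax5* at 0, and the 4 neutrophil markers to 24.3 with *Ly6g* and *Mpo* at 0. The 4 macrophage markers summed to 283 CPM, of which *Lyz2* held 207, and the 5 conventional DC markers to 184 with *Cd209a* at 0. Above the median gene per kilobase were 3 macrophage, 2 neutrophil, 2 conventional DC and 0 B cell markers. *Lyz2* (410 per kilobase) stood above *Siglech* (287), and also with the coding length (440 and 354). It stood below *Siglech* with the longest transcript as the length (328 and 338) and in CPM. In CPM, *Clec9a* (73.9) and *Zbtb46* (106) stood above *Itgax*. The Y-linked gene *Ddx3y* had 102 CPM and *Xist* was listed at 0, which goes against the sex given in the methods. The part of these in the levels below was not tested.

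Promoter windows from RefSeq (GRCm38.p6), 250 bases before to 50 after an annotated start site, were given for 9 of the 10 genes, in 11 windows, and the entry for *Ikbkb* was missing. The search covered both strands for the NF-kB consensus, for the core of the interferon-stimulated response element (ISRE), which is GAAA, 2 bases of any kind and GAAA, and for the TATA box, TATAAA. *Irak1* and *Irak3* had 2 windows each, and those of *Irak1* covered nearly the same bases. Shown are the windows of the highest member, *Myd88*, the lowest, *Irak3*, and the pair with an NF-kB match, *Traf3* and *Map3k7*. Each is written 5′ to 3′ on the strand of the gene, with matches in capitals.
Myd88, chr9:119339969-119340268, minus strand: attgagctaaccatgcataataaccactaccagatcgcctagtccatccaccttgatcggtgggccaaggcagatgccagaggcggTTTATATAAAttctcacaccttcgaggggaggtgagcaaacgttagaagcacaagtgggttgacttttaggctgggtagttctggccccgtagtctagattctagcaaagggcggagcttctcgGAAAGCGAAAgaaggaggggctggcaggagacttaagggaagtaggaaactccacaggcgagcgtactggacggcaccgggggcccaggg
Irak3, chr10:120202081-120202380, minus strand: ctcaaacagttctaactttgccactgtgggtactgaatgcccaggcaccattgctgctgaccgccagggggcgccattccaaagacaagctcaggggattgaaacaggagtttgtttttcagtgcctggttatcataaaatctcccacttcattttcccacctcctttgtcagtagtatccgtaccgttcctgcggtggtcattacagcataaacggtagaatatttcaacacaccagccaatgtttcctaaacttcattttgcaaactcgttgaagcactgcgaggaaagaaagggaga
Traf3, chr12:111166120-111166419, plus strand: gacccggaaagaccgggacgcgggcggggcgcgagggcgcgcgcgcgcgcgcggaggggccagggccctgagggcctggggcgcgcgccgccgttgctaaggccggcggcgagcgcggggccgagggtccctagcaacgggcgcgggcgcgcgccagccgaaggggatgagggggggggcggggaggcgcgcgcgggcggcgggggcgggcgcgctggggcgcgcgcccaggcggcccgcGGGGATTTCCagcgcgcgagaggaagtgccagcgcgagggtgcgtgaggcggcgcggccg
Map3k7, chr4:31963857-31964156, plus strand: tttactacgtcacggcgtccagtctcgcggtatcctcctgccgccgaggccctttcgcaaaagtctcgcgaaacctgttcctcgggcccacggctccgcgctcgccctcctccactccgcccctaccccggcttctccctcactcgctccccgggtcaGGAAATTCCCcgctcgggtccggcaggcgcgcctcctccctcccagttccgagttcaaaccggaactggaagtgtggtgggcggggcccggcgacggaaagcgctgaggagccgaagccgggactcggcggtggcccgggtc

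The *Myd88* window was the only one of the 11 with an ISRE core, which began 40 bases before the RefSeq start site. This window lies within the gene at the coordinates given below, whose 5′ end is at 119341411. It also held overlapping TATA matches on the 2 strands, the first of which began 164 bases before the start site. Of all 32544 windows of this length, 3.45% held the ISRE core and 13.6% the TATA box. The NF-kB consensus occurred in 2 of the 11 windows, beginning 10 bases before the start site in *Traf3* and 92 bases before it in *Map3k7*, against 4.53% of all windows. The *Irak3* window shown, and its second window, held none of the 3. All 11 windows held at least as many CpG pairs as the median of 7, from 8 in this *Irak3* window to 59 in *Traf3*, which was 84% G or C. These matches are a description of the letters and do not show binding.

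All 10 genes had reads in A/A replicate 1, where 33.6% of all genes and 55.9% of protein-coding genes had any. Together they held 29799 reads, or 0.0949% of the library, and *Myd88* took 36.0% of these. Per kilobase, 9 of the 10 stood above the median gene with reads (4.94) and *Irak3* stood far below it. The median of the 10 was 25.0 per kilobase. The median of their percentiles was 77.2 among genes with reads and 69.5 among protein-coding genes with reads. These are levels in a bulk library, in which fewer cells that express a gene and less RNA per cell cannot be told apart.

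*Myd88* (ENSMUSG00000032508.8, chromosome 9, 119335934 to 119341411 of GRCm38, minus strand), the adaptor that starts the route, was the highest of the 10. It had 10715 reads, or 341 CPM (95% CI, 335 to 348). Per kilobase its level was 344 (95% CI, 338 to 351), at percentile 97.7. This was 5.39 times the level per kilobase of *Chuk*, the next member (95% CI, 5.20 to 5.59), and from 11.1 to 38.2 times that of the other 7 members apart from *Irak3*. Over these 7 the range was from 3.39 to 38.4 times with the longest transcript and from 4.40 to 27.4 times with the coding length. *Myd88* was the highest member under each of the 3 definitions of length tried. The smallest lead was 3.39 times, over *Ikbkb* with the longest transcript as the length. The gene had 3 annotated transcripts, and values per gene do not separate them. Exons of *Acaa1a* on the opposite strand covered 11.3% of the exon bases of *Myd88*, and *Acaa1a* had 140 CPM of its own. Whether reads were counted by strand is not given in the sources used here.

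**Figure D1:**
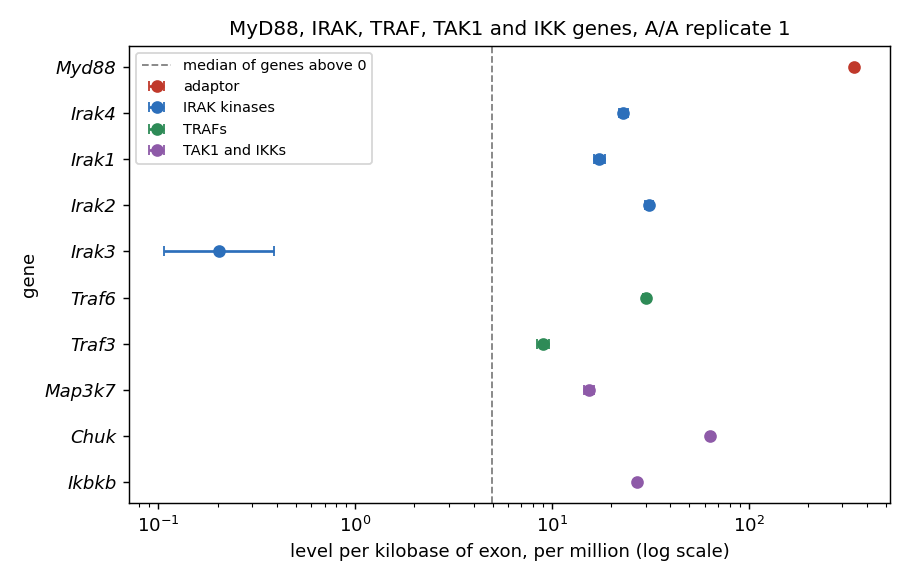
Level per kilobase of exon of the 10 genes in A/A replicate 1, scaled to 1000000 on a log axis, colored by role. Points are values, bars are Wilson 95% intervals for counting error (hidden by the point where narrow), and the dashed line is the median of genes above 0 (4.94). *Myd88* stands highest at 344, and *Irak3*, at 0.203, is the only gene left of the line.

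The 4 IRAK genes fell into 3 of moderate level and 1 near the floor. *Irak4* (chromosome 15, 94543643 to 94581815), the kinase that MyD88 binds first, had 1397 reads, or 44.5 CPM (95% CI, 42.2 to 46.9), and 23.0 per kilobase. *Irak1* (chromosome X, 74013914 to 74023918), which IRAK4 phosphorylates, had 992 reads, or 31.6 CPM (95% CI, 29.7 to 33.6), and 17.4 per kilobase. *Irak2* (chromosome 6, 113638467 to 113695026), its relative that sustains later signalling, had 1657 reads, or 52.8 CPM (95% CI, 50.3 to 55.4), and 31.1 per kilobase. So *Irak2* was the highest of the 4 on the exon scale, with a ratio to *Irak4* of 1.35 (95% CI, 1.26 to 1.45). That order rests on the length used, because the ratio was 0.875 (95% CI, 0.815 to 0.940) with the coding length. *Irak1* was below *Irak4* under all 3 lengths, with a ratio of 0.756 (95% CI, 0.697 to 0.820) over exon bases and 0.435 over the coding length. Exons of *Twf1* covered 7.87% of the exon bases of *Irak4* from the opposite strand, and those of *Gm43963* 4.44% of those of *Irak2*. On the same strand, *Mir5132* (1 read) and *Mir718* (0 reads) covered 2.99% of the exon bases of *Irak1*.

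*Irak3* (ENSMUSG00000020227.10, chromosome 10, 120141648 to 120202130), the brake of the family, had 9 reads. Its level was 0.287 CPM (95% CI, 0.151 to 0.545), above the floor of 3 reads (0.0955 CPM). Per kilobase it was 0.203 (95% CI, 0.107 to 0.385), at percentile 6.88. Its ratio to *Irak4* was 0.00880 (95% CI, 0.00457 to 0.0169), and the ratio stayed below 0.01 under the other lengths, at 0.00715 and 0.00486. Exons of *Tmbim4*, which had 55.2 CPM, covered 5.22% of the exon bases of *Irak3* on the opposite strand. Those of *Gm47009*, listed at 0, covered 0.762% on that strand. Of the 50-base windows of *Irak3* transcripts, 2.56% occurred in *Tmbim4* transcripts. With so few reads, how many of the 9 came from *Irak3* itself was not tested.

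*Traf6* exceeded *Traf3* under every length tried. *Traf6* (chromosome 2, 101678429 to 101701669), the ubiquitin ligase on the way to TAK1, had 2869 reads, or 91.3 CPM (95% CI, 88.1 to 94.7), and 30.1 per kilobase. *Traf3* (chromosome 12, 111166370 to 111267153), the TRAF needed for IRF activation by these receptors, had 801 reads, or 25.5 CPM (95% CI, 23.8 to 27.3), and 9.03 per kilobase. The ratio of *Traf3* to *Traf6* was 0.299 (95% CI, 0.277 to 0.324), and 0.244 and 0.261 with the other lengths. With the coding length the levels were 54.2 for *Traf6* and 14.1 for *Traf3*. Neither gene had exon bases shared with another gene, and 0 of their 50-base windows occurred in transcripts of another gene.

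Of the kinases below the TRAFs, the IKK genes were higher than TAK1. *Map3k7* (chromosome 4, 31964097 to 32023467), the gene of TAK1, had 1201 reads, or 38.2 CPM (95% CI, 36.1 to 40.5), and 15.5 per kilobase. Of its 50-base windows, 4.36% occurred in *Gm8188*, which was listed at 0. *Chuk* (chromosome 19, 44073335 to 44107480), the gene of IKK-alpha, had 3925 reads, or 125 CPM (95% CI, 121 to 129), and 63.9 per kilobase. *Ikbkb* (chromosome 8, 22659212 to 22706589), the gene of IKK-beta, the main kinase of IkB, had 6233 reads, or 198 CPM (95% CI, 194 to 203), and 27.1 per kilobase.

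The order of the IKK genes turned with the length. Annotated exons of *Ikbkb* cover 19078 bases over 14 transcripts, 3.94 times its longest transcript of 4845 bases, while the same ratio was from 1.04 to 1.46 for the other 9 genes. The ratio of *Ikbkb* to *Chuk* was 0.423 (95% CI, 0.407 to 0.441) over exon bases, 1.15 (95% CI, 1.10 to 1.19) over the longest transcript and 1.56 over the coding length. The level per kilobase of *Ikbkb* was 85.3 with the longest transcript and 82.4 with the coding length, second only to *Myd88* among the 10 in both. The counting intervals are narrow beside these shifts, so the choice of length, not the depth, limits this comparison.

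**Figure D2:**
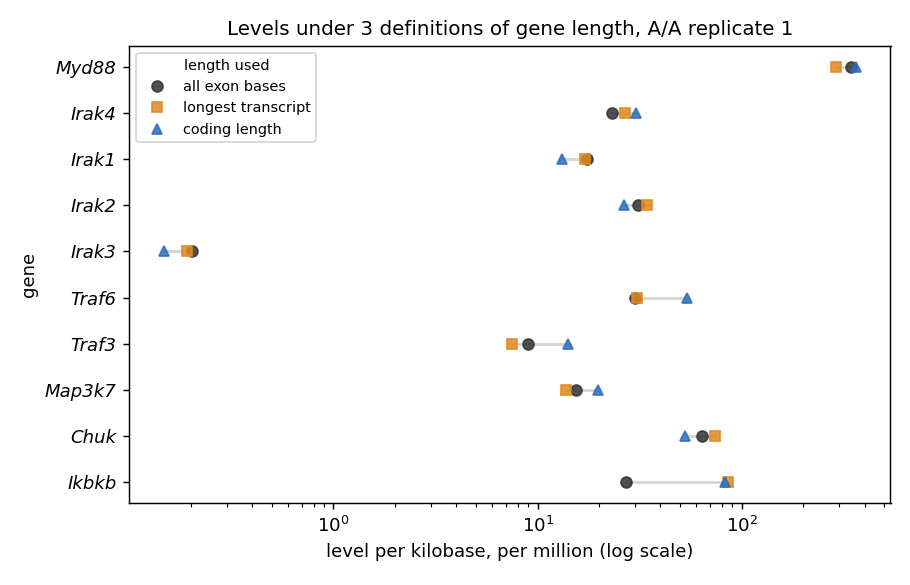
Levels of the 10 genes per kilobase of all exon bases (circles), of the longest transcript (squares) and of the longest coding sequence (triangles), scaled to 1000000 on a log axis. *Ikbkb* moves most, from 27.1 to 85.3, while *Myd88* stays highest and *Irak3* lowest under each length.

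On the exon scale the descending order was *Myd88*, *Chuk*, *Irak2*, *Traf6*, *Ikbkb*, *Irak4*, *Irak1*, *Map3k7*, *Traf3* and *Irak3*. Of the 9 neighbouring pairs, only *Irak2* and *Traf6* did not differ beyond counting error (ratio, 1.03; 95% CI, 0.971 to 1.10). The first and the last place held under all 3 lengths. With the longest transcript and with the coding length *Ikbkb* passed *Traf6*, *Irak2* and *Chuk*. With the coding length *Traf6* also passed *Chuk* and *Irak2*, *Irak4* passed *Irak2*, and *Map3k7* and *Traf3* passed *Irak1*. There *Traf6* and *Chuk* were close (54.2 and 52.7), as were *Traf3* and *Irak1* (14.1 and 13.2). Whether these close pairs differ beyond counting error was not tested.

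The levels of the other genes of the pathway also depended on the length. Of 68 such genes with reads, 34 moved by over 1.5 times with the longest transcript or the coding length, against 3 of the 10 members (*Ikbkb*, *Traf6* and *Traf3*). Part of each move is common to all genes, because the levels under each length are scaled to their own total. *Ticam1* has 2992 bases both as exons and as longest transcript, and its level still moved 1.25 times. How much of the count of 34 comes from this scaling was not tested. The levels and intervals that follow are over exon bases, and the intervals do not cover the choice of length.

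Partners of these kinases were read from a list of 9 genes, of which 5 stood above the median gene per kilobase. The median gene, here and below, is over all genes with reads, while the listed genes are protein-coding. The share of protein-coding genes above it was not counted. *Tbk1*, an IKK-related kinase that phosphorylates IRFs, was the highest of them with 148 CPM and 98.7 per kilobase, followed by *Azi2* (27.1, and 52.1 with the coding length), a TBK1 adaptor, and *Tab1* (23.4). The lowest was *Tbkbp1*, another TBK1-binding adaptor, with 1.35. The sister kinase of TBK1, *Ikbke*, had 190 reads and 1.74 per kilobase, and *Tbk1* was 56.6 times as high (95% CI, 49.0 to 65.4), but 47.5 times with the longest transcript and 24.1 times with the coding length. *Ikbkg* encodes NEMO, the subunit that holds the IKK complex together. It had 31.6 CPM and 10.2 per kilobase, a ratio to *Chuk* of 0.159 (95% CI, 0.148 to 0.170), and 0.439 with the coding length. The activator of TAK1, *Tab1*, stood at 1.51 times *Map3k7* (95% CI, 1.39 to 1.65), but at 0.955 times (95% CI, 0.877 to 1.04) with the coding length. *Tab2*, which binds the ubiquitin chains, stood at 0.244 times *Map3k7* (95% CI, 0.214 to 0.278). *Tbk1* over *Ikbkb* was 3.65 over exon bases and 0.777 over the coding length.

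**Figure D3:**
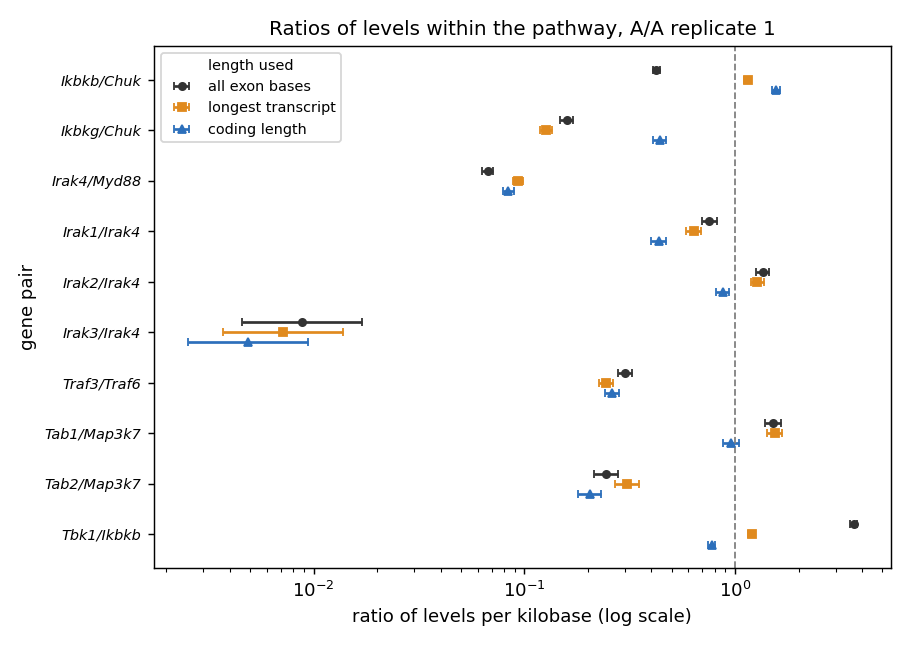
Ratios of levels per kilobase for 10 gene pairs of the pathway, on a log axis, under 3 definitions of length. Bars are 95% intervals for counting error, and the dashed line marks a ratio of 1. *Ikbkb*/*Chuk*, *Irak2*/*Irak4*, *Tab1*/*Map3k7* and *Tbk1*/*Ikbkb* lie on different sides of 1 under different lengths, and the other 6 pairs stay below it.

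Among other TRAF proteins and their binding partners, 9 of 10 genes stood above the median gene, with a list median of 34.4 per kilobase beside 25.0 for the 10 signalling genes. *Traf1*, a TRAF that lacks the RING domain of ubiquitin ligases, was the highest with 725 CPM and 214 per kilobase, or 440 with the longest transcript and 557 with the coding length. It exceeded *Traf6* by 7.10 times (95% CI, 6.83 to 7.38) and *Traf3* by 23.7 times (95% CI, 22.1 to 25.4). With the longest transcript these ratios were 14.3 and 58.4, and with the coding length 10.3 and 39.4. *Traf2*, which works below TNF receptors, had 104 per kilobase, or 3.44 times *Traf6* (95% CI, 3.29 to 3.59). *Tank*, a TRAF-binding adaptor of TBK1, had 89.3 (162 with the longest transcript), and the lowest was *Traf3ip1* with 2.25. *Traf1* and *Traf2* were above *Traf6* under all 3 lengths.

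The TIR adaptors and their regulators were lower, with a list median of 4.60 per kilobase and 3 of 7 genes above the median gene. *Pik3ap1*, the adaptor BCAP that links TLRs to PI3K, had 437 CPM and 204 per kilobase, and *Myd88* was 1.69 times as high (95% CI, 1.65 to 1.73). *Tollip*, an IRAK-binding regulator, had 38.3, and *Ticam1*, the adaptor TRIF of TLR3, had 36.9. With the coding length they stood further apart, at 85.4 and 18.2. *Tirap*, which bridges MyD88 to receptors, had 45 reads (0.756 per kilobase, and 1.81 with the coding length), and the lowest was *Sarm1*, an NADase with a TIR domain, with 17 reads (0.250).

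Genes that write ubiquitin chains on the route had a list median of 80.1 per kilobase, and 8 of 10 stood above the median gene. *Birc3* and *Birc2*, the ligases cIAP2 and cIAP1, had 189 and 163, and *Rbck1*, a subunit of the linear ubiquitin ligase, had 163 (253 with the longest transcript). *Peli2* had 2.06 (5.40 with the coding length), and *Peli3* was listed at 0, which allows up to 3 reads (0.0955 CPM), or 0.122 CPM by the Wilson upper bound. *Peli1*, an IRAK-binding ligase of the same family, had 161, which was 9.26 times *Irak1* (95% CI, 8.68 to 9.88), and 13.3 and 23.1 times with the longest transcript and the coding length. Of the 13 editors and brakes, 12 stood above the median gene, with a list median of 35.3. *Usp18*, an ISG15 protease and IFN-induced brake, had 2894 CPM and 2698 per kilobase. *Otulin*, which removes linear chains, had 130 (75.7 with the coding length) and *Tnfaip3*, the ubiquitin editor A20, had 127, while *Otud7b* was the lowest with 3.87.

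Below TAK1, 12 of the 14 genes of the MAP kinase arm stood above the median gene, with a list median of 41.1 per kilobase. *Map2k1* and *Map2k2*, the kinases of ERK, had 329 and 61.9 (the latter 117 with the longest transcript), and *Map2k3*, a kinase of p38, had 60.6. *Map2k6*, the other main p38 kinase, was the lowest with 16 reads and 0.385 per kilobase. *Map2k7* was given as a pair of gene models, and the model with the most reads was used.

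At the ends of the route, *Tlr7*, the receptor of R848 in mouse pDCs, had 131 per kilobase and *Tlr9* had 29.4, a ratio of 4.45 (95% CI, 4.18 to 4.73). With the coding length they had 61.4 and 12.0. *Myd88* exceeded *Tlr7* by 2.63 times (95% CI, 2.55 to 2.72), and by 5.90 times with the coding length. *Irf7* had 2309 per kilobase, or 6.70 times *Myd88* (95% CI, 6.57 to 6.84). *Irf5*, the IRF of inflammatory cytokine genes, had 325, or 0.944 times *Myd88* (95% CI, 0.920 to 0.970), and 1.17 times with the longest transcript and 0.634 times with the coding length. The NF-kB subunit genes *Rela* and *Nfkb1* had 248 and 23.8, and *Nfkb1* had 55.4 with the longest transcript.

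**Figure D4:**
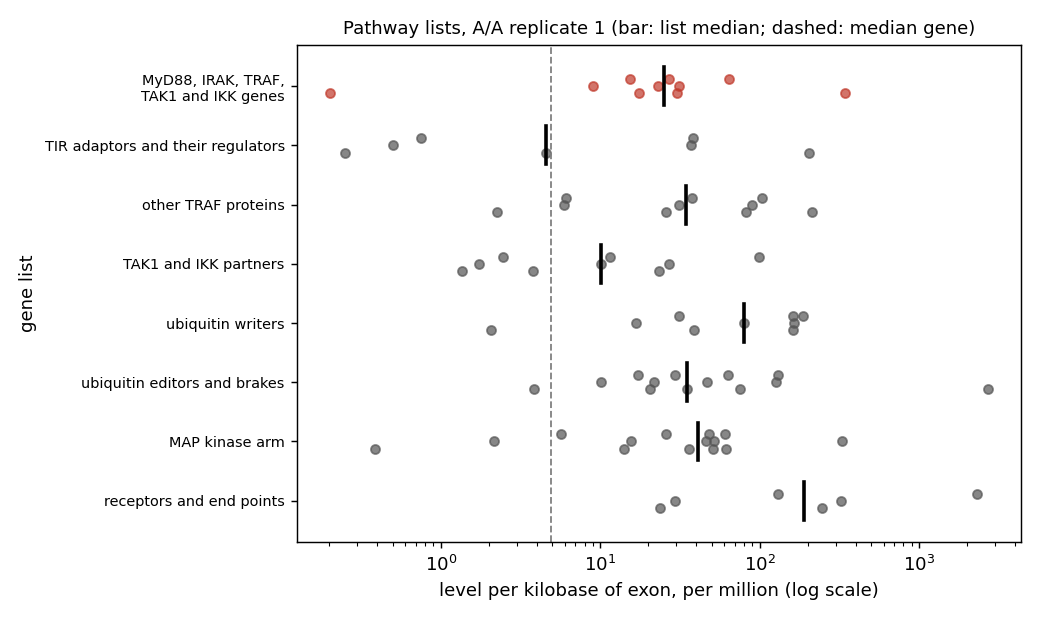
Levels per kilobase of exon, scaled to 1000000 on a log axis, for the 10 signalling genes (red) and 7 other lists of the pathway (grey) in A/A replicate 1. Each point is a gene with reads, black bars are list medians and the dashed line is the median gene (4.94). The 10 genes span from 0.203 to 344 around a median of 25.0, and *Usp18* (2698) and *Irf7* (2309) stand highest of all.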

How the data were processed

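RNA-Seq of splenic pDCs stimulated with R848 had 9 samples, grouped by genotype from their labels. A/A replicate 1 was analysed here. The processing notes name HISAT2 and StringTie, without versions, and the builds mm8 and mm10. The counting tool, annotation and use of strand are not given in the sources used here. Each deposited value is a normalized signal per gene. It was taken here as a read count divided by 1 factor, because 100% of values above 0 were whole multiples of 1.19 (tolerance, 0.01). Whether 1 step stands for 1 read was not tested. Division by that step gave 31408298 reads. The length in the file was the genomic span for 100% of genes and was not used.

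Identifiers without versions matched GENCODE M21 (GRCm38) for 99.7% of genes, and 95.2% of these had identical coordinates. CPM, levels per kilobase of annotated exon, percentiles among genes with reads and Wilson 95% intervals were computed with Python 3.11.15, numpy 2.4.6, scipy 1.17.1 and pandas 2.3.3. Intervals of ratios used the counting error on the log scale. The recovery of reads, the percentiles and the intervals of ratios were tested on simulated data, drawn as independent counts. CPM, levels per kilobase and Wilson intervals were not tested in this way. Genes named were the 10 members, the 3 highest, the lowest and those at 0 in each pathway list, genes of 10 chosen pairs, sort markers, receptors and end points, and genes that overlap a member. *Peli1*, *Tirap*, *Ikbke*, *Gm8188* and the pairs of *Traf1*, *Traf2*, *Irf5*, *Irf7*, *Tlr7*, *Pik3ap1*, *Peli1* and *Ikbke* with other genes were chosen after their values were seen. Also named were some cell type markers at 0, *Ddx3y* and *Xist* as a check of the labels, and *Map2k7* for its pair of gene models. *Lyz2*, *Clec9a* and *Zbtb46*, and their comparison with sort markers, were picked from the marker lists outside the rules above. The members and lists were chosen with earlier results of these data known. Comparison of genotypes (DESeq2 in the study) was not run, and no test between groups was made. No gene was named for likeness of pattern, which needs more libraries.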

Additional observations from a re-analysis of the deposited data

How the results depend on the processing

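No paired analysis was possible because only A/A replicate 1 was analysed, so no replicate could be left out or blocked either. The median percentile of the 10 genes, 77.2, was 92.3 over all genes, 73.6 over genes with at least 10 reads (without *Irak3*), 69.5 over protein-coding genes with reads, 80.6 with CPM, 78.2 with the longest transcript and 67.9 with the coding length. The first 3 rank against other genes by construction. The median level per kilobase, 25.0, was 28.9 and 28.6 with these lengths. Of the 10 ratios, 3 were above 1 beyond counting error over exon bases, 4 with the longest transcript and 1 with the coding length. Ratios that turned were *Ikbkb*/*Chuk* (1.15 and 1.56), *Irak2*/*Irak4* (0.875), *Tab1*/*Map3k7* (0.955) and *Tbk1*/*Ikbkb* (0.777), the last 3 with the coding length only, and the construction of the length is what changed. Single levels moved beyond counting error in 7 of 10 genes with the longest transcript and in 9 with the coding length. These moves, and those of the median level, include a shift common to all genes, because each length has its own scaling. Ratios of genes under the same length do not include it. A pseudocount of 0.1 in place of 1 lowered the log2 level by up to 1.99, in *Irak3*. Depth limits *Irak3* (9 reads), *Map2k6*, *Sarm1* and *Tirap*.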
